A study of Homo sapiens with 6 samples.

Results

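The alcohol dehydrogenases ADH1A, ADH1B, ADH1C and ADH5, the aldehyde dehydrogenases ALDH1A1, ALDH1A2, ALDH1A3, ALDH2 and ALDH6A1, and the aldehyde oxidase AOX1 were examined in HFL-1 cells, an established human fetal lung fibroblast line. These 10 genes, of 23355 in the count table, were taken by their symbols. ADH1B, AOX1 and ALDH6A1 were included because their counts fell with both siRNAs against TAZ in these same libraries, and the study's own list of genes lowered by both siRNAs, drawn from the same libraries, also held these 3. The values of these 3 genes in siTAZ against siNTC are therefore given as a description, without their FDR, and nothing is read from their calls. The stated rule did not use the direct comparison of siTAZ #1 with siTAZ #2, although its results were known when the genes were chosen.

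The cells received an siRNA without a target (siNTC) or either of 2 siRNAs against TAZ (siTAZ #1 and siTAZ #2), and total RNA was taken 48 h later and sequenced by the Ion Torrent method. TAZ is the transcriptional coactivator of the Hippo pathway encoded by WWTR1. Each of the 3 groups had 2 libraries, described in the series as biological replicates, and the p-values measure only the spread between such pairs. A single cell line and transient knockdown limit the groups as a model, and in RNA from whole cultures fewer cells expressing a gene cannot be told apart from less RNA per cell.

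Alcohol dehydrogenases oxidise alcohols to aldehydes, and aldehyde dehydrogenases oxidise aldehydes to acids. The class I enzymes ADH1A, ADH1B and ADH1C act on ethanol and retinol and are abundant in liver, and ADH5 clears formaldehyde bound to glutathione in most cells. ALDH1A1, ALDH1A2 and ALDH1A3 make retinoic acid from retinaldehyde, ALDH2 oxidises acetaldehyde in mitochondria, ALDH6A1 oxidises methylmalonate semialdehyde in the breakdown of valine, and AOX1 is a cytosolic oxidase of aldehydes and nitrogen heterocycles that needs the molybdenum cofactor.

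ADH1A, ADH1B and ADH1C lie side by side on the minus strand of chromosome 4 and have closely similar coding sequences. A short read from these sequences cannot always be given to 1 of the 3. Only coding bases were compared, and the longest transcript had 5363 bases for ADH1B and 1454 for ADH1A and ADH1C. Over 1128 coding bases in GRCh37, ADH1A and ADH1B were 94.9% identical, ADH1A and ADH1C 93.8%, and ADH1B and ADH1C 95.6%, with stretches of up to 170 identical bases between ADH1B and ADH1C. The same 60 coding bases of exon 5 are shown for the 3 genes because reads from such a stretch bear on the split of counts between them. This window was picked for having the most differing positions, among those within an exon and away from codons that commonly differ between people. It is therefore not typical of the coding sequence. Capitals mark the 9 positions that the 3 genes did not all share. They lie at chr4:100205679-100205738 in ADH1A, chr4:100237178-100237237 in ADH1B and chr4:100266142-100266201 in ADH1C, and are written 5′ to 3′ on the minus strand.
ADH1A: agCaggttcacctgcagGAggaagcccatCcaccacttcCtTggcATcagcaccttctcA
ADH1B: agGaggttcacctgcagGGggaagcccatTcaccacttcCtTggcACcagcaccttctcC
ADH1C: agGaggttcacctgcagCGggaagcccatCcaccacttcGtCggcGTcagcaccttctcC

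The 250 bases before the RefSeq start of ADH1B, AOX1 and ALDH6A1 are shown because these 3 genes had been chosen for their fall with both siRNAs. The sequences came from the RefSeq table of GRCh38.p14 and were placed in GRCh37 by an exact match, at chr4:100242559-100242808 on the minus strand for ADH1B, chr2:201450487-201450736 on the plus strand for AOX1 and chr14:74551157-74551406 on the minus strand for ALDH6A1. Capitals mark CCAAT in either strand.
ADH1B: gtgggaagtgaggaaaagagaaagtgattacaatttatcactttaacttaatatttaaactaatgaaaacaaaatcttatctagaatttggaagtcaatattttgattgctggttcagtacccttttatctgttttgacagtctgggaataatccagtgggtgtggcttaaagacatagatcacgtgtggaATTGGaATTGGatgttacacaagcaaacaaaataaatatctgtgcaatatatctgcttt
AOX1: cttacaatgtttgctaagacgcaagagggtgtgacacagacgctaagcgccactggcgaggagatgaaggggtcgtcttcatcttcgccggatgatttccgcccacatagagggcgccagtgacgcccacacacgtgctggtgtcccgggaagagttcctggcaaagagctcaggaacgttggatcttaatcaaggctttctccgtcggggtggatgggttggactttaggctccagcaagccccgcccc
ALDH6A1: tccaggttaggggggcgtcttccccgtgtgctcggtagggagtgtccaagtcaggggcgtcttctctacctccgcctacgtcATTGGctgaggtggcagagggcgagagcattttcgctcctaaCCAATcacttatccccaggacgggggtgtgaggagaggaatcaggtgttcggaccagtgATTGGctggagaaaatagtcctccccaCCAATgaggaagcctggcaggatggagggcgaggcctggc

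The motifs searched on both strands of these windows were GGAATG, bound by the TEAD factors through which TAZ acts, the AP-1 motif TGANTCA, the CCAAT box spelled in its name, and the TATA motif TATAAA. The CCAAT box was found 4 times before ALDH6A1, 2 times before ADH1B and 0 times before AOX1. At least 1 match was in 32.0% of 35116 promoters of the same length. Of the other members, ADH1C had 2 matches, ADH1A, ALDH1A1, ALDH1A2 and ALDH1A3 had 1 each, and ADH5 had 0. The TEAD, AP-1 and TATA motifs were in none of the 3 printed windows, and occurred in 11.9%, 6.57% and 10.7% of all promoters. None of these matches is evidence of binding, and the missing letters concern only these 250 bases.

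WWTR1, the targeted gene, stood at 132.2 and 130.8 CPM (counts brought to a common library size by the trimmed mean of M-values) in siNTC, 26.4 and 28.4 in siTAZ #1, and 46.1 and 43.1 in siTAZ #2. The libraries held 15648055 to 32078188 counts, with the deepest being siTAZ #1 replicate 2. In that library the genes from RANGAP1 through chromosomes X and Y (1177 with a position) had counts near 0. None of the 10 genes lay in this stretch, and 1 gene of the pathway lists below did (HSD17B10, with 5 counts there and 1002 to 1175 in the other libraries). All 10 fibroblast markers had a mean count of 10 or more, while none of 8 hepatocyte and none of 5 adipocyte markers did, with summed levels of 0.379 to 1.10 CPM and 0.505 to 1.51 CPM across the libraries. The summed fibroblast markers were at 43000 to 43090 CPM in siNTC, 31480 to 33800 in siTAZ #1 and 33350 to 35110 in siTAZ #2. Single fibroblast markers went in both directions. Mean levels in siNTC, siTAZ #1 and siTAZ #2 were 12440, 6173 and 7282 CPM for COL1A2 and 9308, 5653 and 10680 for COL1A1. Those of PDGFRA were 424, 1397 and 508, and those of PDGFRB 250, 327 and 365. The summed epithelial markers (4 of 9 present) were 46.0 to 46.6, 41.6 to 49.0 and 59.4 to 65.1 CPM in the 3 groups, the endothelial ones (2 of 6) 42.1 to 42.7, 46.4 to 47.4 and 26.7 to 31.4, and the leukocyte ones (CD68 alone of 6) 74.2 to 75.3, 69.4 to 75.9 and 38.2 to 49.3. Their part in the results below was not tested.

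Of the 10 genes, 7 had enough counts to be tested, and ADH1A, ALDH1A1 and ALDH1A2 did not. With siTAZ #1, 3 of the 7 were lower and 1 higher at an FDR under 0.05 (edgeR, quasi-likelihood test), where 9.78% of all 14053 genes tested were lower and 10.8% higher. With siTAZ #2, 4 were lower and 2 higher, where 14.4% of all genes were lower and 14.1% higher. ADH1B, AOX1 and ALDH6A1 were the 3 lower with both siRNAs (3.74% of all genes), which the choice of genes fixed, so the counts of lower genes say nothing about the group. ALDH1A3 was the gene higher with both (5.49% of all genes). The call of ADH1B with siTAZ #1 was lost in 8 of the 16 alternatives tried, among them the replicate block, the exact test, the fit of 4 libraries and leaving out siTAZ #1 replicate 2 or any siNTC or siTAZ #2 library, and that of ALDH6A1 with siTAZ #1 was lost without either siNTC library. Without siNTC replicate 1 the counts were 1 lower and 0 higher with siTAZ #1 and 3 lower and 0 higher with siTAZ #2, and without siNTC replicate 2 they were 1 lower and 1 higher, and 3 lower and 0 higher. Both comparisons share the siNTC libraries. The shares of all genes given here and below hold for the fit of all 6 libraries. They were not computed with a library left out.

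**Figure D1:**
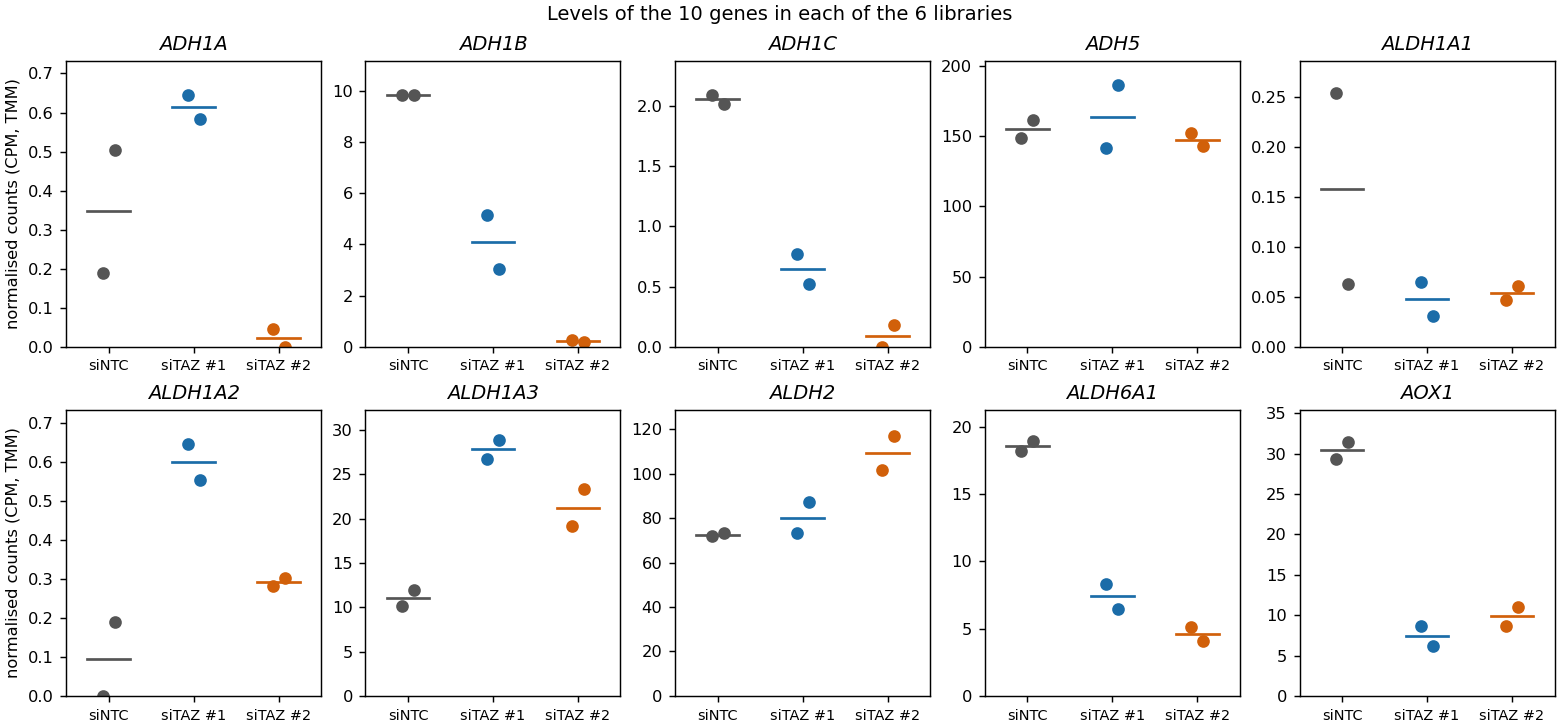
Level of each of the 10 genes in the 6 libraries, in CPM (vertical axis, a scale of its own for each gene), with points for libraries and lines for the means of 2. The 4 siTAZ libraries of ADH1B, ADH1C, ALDH6A1 and AOX1 lie below both siNTC libraries, those of ALDH1A3 lie above them, ADH5 overlaps between all groups, and ALDH2 overlaps between siNTC and siTAZ #1 with the siTAZ #2 libraries above.

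ADH1B (chromosome 4, 100226128 to 100242558 in GRCh37) had 155 and 156 counts in siNTC, 80 and 99 in siTAZ #1, and 6 and 3 in siTAZ #2. In CPM these were 9.83 and 9.85, then 5.16 and 3.04, then 0.281 and 0.181. The 3 groups did not overlap, and the siTAZ #2 libraries were close to the limit of detection. The share of all genes whose 3 groups did not overlap was not computed. Nothing is therefore read from it, here or for ADH1C and ALDH6A1 below. ADH1B was lower by a log2 fold change of -1.28 (SE 0.32) with siTAZ #1 and -5.35 (SE 0.43) with siTAZ #2. The direct comparison, which the choice of genes did not use, gave 4.07 (SE 0.43) higher in siTAZ #1 than in siTAZ #2 on the log2 scale, with an FDR of 0.00217, and the FDR lay between 9.21e-10 and 0.0238 under the 16 alternatives tried.

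ADH1C (chromosome 4, 100257654 to 100273903) had 33 and 32 counts in siNTC, 12 and 17 in siTAZ #1, and 0 and 3 in siTAZ #2. Its levels were 2.09 and 2.02, 0.774 and 0.521, and 0 and 0.181 CPM, again without overlap of the 3 groups. The log2 fold change was -1.69 (SE 0.72, FDR 0.153) with siTAZ #1 and -4.56 (SE 0.94, FDR 0.0177) with siTAZ #2. Leaving out siNTC replicate 1 (FDR 0.094) or replicate 2 (FDR 0.093) lost this second call. Since siTAZ #2 held 3 counts in all, the ratio of summed levels to siNTC is better given with its exact 95% counting interval, 0.0385 (0.00773 to 0.118). Intervals of this kind cover counting error only. The direct difference between the siRNAs was 2.87 (SE 1.00, FDR 0.0811), and it passed the threshold with DESeq2 (0.038), without the RANGAP1 to Y stretch (0.034) and without siTAZ #2 replicate 2 (0.043).

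ADH1A (chromosome 4, 100197526 to 100212160) was near the limit of detection, with 3 and 8 counts in siNTC, 10 and 19 in siTAZ #1, and 1 and 0 in siTAZ #2. The ratio of siTAZ #1 to siNTC was 1.73, with an exact 95% counting interval of 0.840 to 3.85, and that of siTAZ #2 to siNTC was 0.0758 (0.00176 to 0.521). The counts of the 3 class I genes together do not depend on how reads were divided among them, but would miss shared reads if these were discarded in counting, which was not given in the sources used here. They were 191 and 196 in siNTC, 102 and 135 in siTAZ #1, and 7 and 6 in siTAZ #2, or 12.1 and 12.4, 6.58 and 4.14, and 0.327 and 0.362 CPM. ADH1B made up 79.6% to 81.2% of these counts in siNTC and 73.3% to 78.4% in siTAZ #1, and 6 of 7 and 3 of 6 counts in the siTAZ #2 libraries.

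On chromosome 4, ADH4 and ADH6 lie between ADH5 and the class I cluster. ADH5 (99992129 to 100009952), which clears formaldehyde, was the most abundant of the 10 genes. It stood at 148.5 and 161.2 CPM in siNTC, 141.6 and 186.2 in siTAZ #1, and 152.1 and 143.2 in siTAZ #2, and the 3 groups overlapped. Its log2 fold change was 0.08 (SE 0.14, FDR 0.714) with siTAZ #1 and -0.07 (SE 0.14, FDR 0.758) with siTAZ #2. Without siTAZ #1 replicate 2 the first of these was -0.13.

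Among the retinaldehyde dehydrogenases, ALDH1A3 (chromosome 15, 101417919 to 101456831, plus strand) was the only gene with counts above the filter. It stood at 10.1 and 12 CPM in siNTC, 26.7 and 28.9 in siTAZ #1, and 19.1 and 23.3 in siTAZ #2, so that all 4 siTAZ libraries were above both siNTC libraries, as for 18.6% of all genes tested. It rose by 1.33 (SE 0.18, FDR 0.00616) on the log2 scale with siTAZ #1 and by 0.94 (SE 0.18, FDR 0.0129) with siTAZ #2. Leaving out siNTC replicate 1 lost the call with siTAZ #1 (FDR 0.063), and that with siTAZ #2 was lost without siNTC replicate 1 (0.092), siNTC replicate 2 (0.058) or siTAZ #2 replicate 2 (0.078), and the fold change stayed above 0 in each. ALDH1A1 (chromosome 9, 75515587 to 75695358, minus strand) had 1 to 4 counts in every library. ALDH1A2 (chromosome 15, 58245622 to 58790065, minus strand) had 0 and 3 counts in siNTC, 10 and 18 in siTAZ #1, and 6 and 5 in siTAZ #2, with ratios to siNTC of 6.14 (exact 95% counting interval 1.90 to 31.5) and 3.06 (0.807 to 17.1).

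ALDH2 (chromosome 12, 112204691 to 112255336, plus strand), the mitochondrial acetaldehyde enzyme, stood at 71.8 and 73.2 CPM in siNTC, 73.1 and 87.2 in siTAZ #1, and 101.5 and 116.8 in siTAZ #2. The siTAZ #1 libraries overlapped with siNTC and the siTAZ #2 libraries lay above all others, a pattern whose share of all genes was not computed. The log2 fold change was 0.15 (SE 0.12, FDR 0.448) with siTAZ #1 and 0.59 (SE 0.12, FDR 0.0183) with siTAZ #2. The direct difference was -0.45 (SE 0.12, FDR 0.0425). Leaving out siNTC replicate 1 (FDR 0.12), siNTC replicate 2 (0.11) or siTAZ #2 replicate 2 (0.11) lost the call with siTAZ #2, and the direct difference missed the threshold in 8 of the 16 alternatives, with an FDR between 0.00251 and 0.436.

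ALDH6A1 (chromosome 14, 74523550 to 74551195, minus strand), the valine-breakdown enzyme, had 287 and 300 counts in siNTC, 129 and 211 in siTAZ #1, and 110 and 68 in siTAZ #2. Its levels were 18.2 and 18.9, 8.32 and 6.47, and 5.14 and 4.11 CPM, and the 3 groups did not overlap. The log2 fold change was -1.33 (SE 0.22) with siTAZ #1 and -2.0 (SE 0.23) with siTAZ #2. The direct difference was 0.67 (SE 0.22, FDR 0.0719), and the FDR came to 0.026 when siTAZ #1 replicate 2 was left out, which left siTAZ #1 with a lone library assumed to vary like the others.

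AOX1 (chromosome 2, 201450737 to 201541787, plus strand) had 462 and 499 counts in siNTC, 135 and 202 in siTAZ #1, and 185 and 183 in siTAZ #2, or 29.3 and 31.5, 8.71 and 6.20, and 8.65 and 11.1 CPM. The siTAZ libraries lay far below siNTC, and those of the 2 siRNAs overlapped. The log2 fold change was -2.03 (SE 0.24) with siTAZ #1 and -1.63 (SE 0.23) with siTAZ #2, and the direct difference was -0.41 (SE 0.23, FDR 0.248), with a call gained without siTAZ #1 replicate 1 (FDR 0.039). All 4 siTAZ libraries lay below both siNTC libraries for ADH1C (17.5% of all genes tested did so), and also for ADH1B, ALDH6A1 and AOX1, which had been chosen for their fall.

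**Figure D2:**
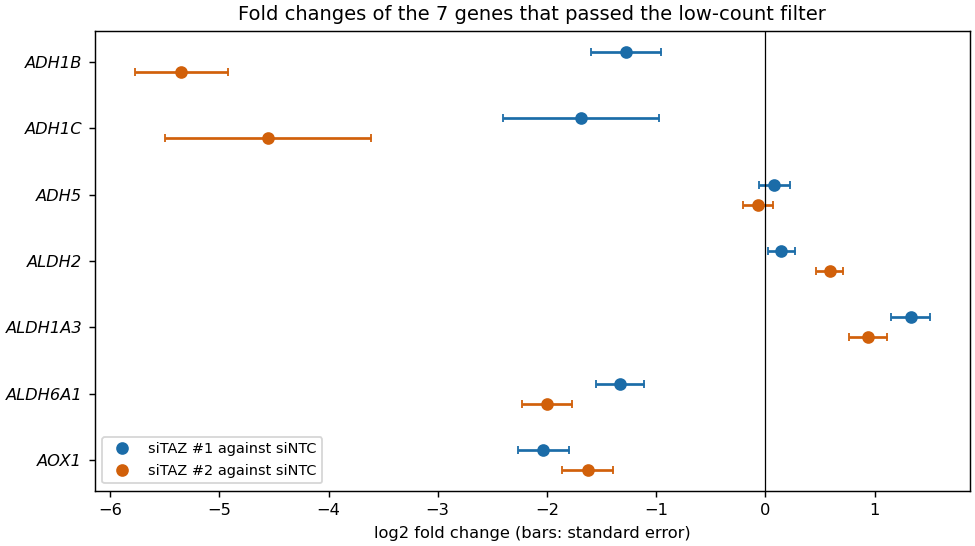
Log2 fold change of the 7 tested genes (vertical axis, by gene) with siTAZ #1 and siTAZ #2 against siNTC, with bars for 1 SE of the fit. ADH1B stands at -1.28 and -5.35, AOX1 at -2.03 and -1.63, and ALDH1A3 at 1.33 and 0.94, while ADH5 stays within 0.1 of 0.

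In the direct comparison, ADH1B was higher and ALDH2 lower in siTAZ #1 than in siTAZ #2 (1 of 7 in each direction, where 15.2% of all genes tested were higher and 13.4% lower), and ADH1C, ADH5, ALDH1A3, ALDH6A1 and AOX1 missed the threshold. ADH5 differed by 0.15 (SE 0.14, FDR 0.475) and ALDH1A3 by 0.39 (SE 0.17, FDR 0.148). ADH5 turned to -0.06 without siTAZ #1 replicate 2 and had an FDR of 0.023 when siTAZ #1 replicate 1 was left out. Leaving out either siNTC library or siTAZ #2 replicate 1 kept the call of ADH1B alone. A missed threshold does not show equal levels. WWTR1 itself was lower in siTAZ #1 than in siTAZ #2 by a log2 difference of -0.70 (SE 0.10, FDR 0.00499). Of the genes chosen for their fall, ADH1B was lower in siTAZ #2 in this test, and the differences of ALDH6A1 (0.67) and AOX1 (-0.41) had opposite signs and missed the threshold.

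Levels were compared between genes as CPM per kb of merged exons. In siNTC the order was ADH5 at 31.8 ± 1.84 (SD, n = 2), ALDH2 at 7.46 ± 0.105, AOX1 at 5.62 ± 0.288, ALDH6A1 at 2.78 ± 0.0781, ALDH1A3 at 2.07 ± 0.245, ADH1C at 1.31 ± 0.0326 and ADH1B at 0.922 ± 0.00122. ADH1A, ALDH1A1 and ALDH1A2 stood at 0.156, 0.0558 and 0.0117, and their neighbouring levels were not separated beyond the spread. With the length of the longest transcript in place of merged exons, ADH1B stood at 1.83 and ADH1C at 1.41, which turned their order, and ALDH6A1 at 3.4 and ALDH1A3 at 3.19 ± 0.377 were no longer separated. With siTAZ #1, ALDH1A3 (5.21) stood above AOX1 (1.38) and ALDH6A1 (1.11), and with siTAZ #2 the order of these 3 was the same (3.98, 1.82 and 0.692), whereas in siNTC ALDH1A3 lay below both others.

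**Figure D3:**
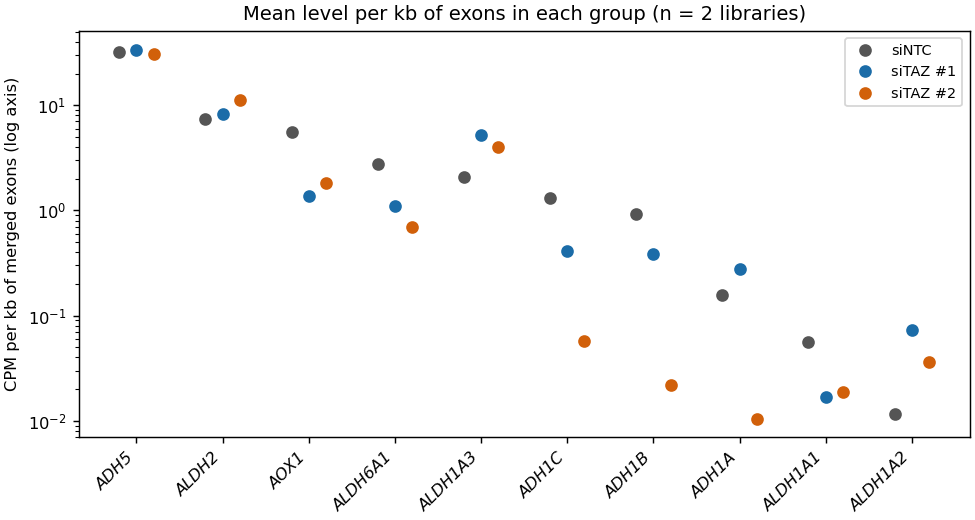
Group mean level of each of the 10 genes in CPM per kb of merged exons (log axis) in siNTC, siTAZ #1 and siTAZ #2, each the mean of 2 libraries. ADH5 lies highest in all groups (31.8, 33.7 and 30.3), and ADH1B moves from 0.922 in siNTC to 0.384 and 0.0216.

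The genes whose levels followed ADH1B, AOX1 and ALDH6A1 most closely over the 6 libraries were found by the root mean square difference of log2 CPM, each gene centred on its own mean. Nearest to ADH1B were KCNN2, a calcium-activated potassium channel, at a difference of 0.57, SAMD12 at 0.68 and KIAA1199, a hyaluronan-degrading protein, at 0.75. KCNN2 stood at a mean of 13.4 CPM in siNTC, 3.91 in siTAZ #1 and 0.448 in siTAZ #2. Nearest to AOX1 were PCK2, the mitochondrial phosphoenolpyruvate carboxykinase (0.18), the caveolar protein CAV1 (0.19) and SNORD77 (0.21). PCK2 stood at 75.3, 16.5 and 20.6 CPM and CAV1 at 1352, 302 and 435 in the 3 groups. Nearest to ALDH6A1 were JPH1 (0.12), the protocadherin PCDH10 (0.12) and the complement protease MASP1 (0.13), with MASP1 at 117, 43.1 and 28.6 CPM. JPH1 (0.82, 0.33 and 0.13 CPM in the 3 groups) and SNORD77 (0.95, 0.19 and 0.33) were near the limit of detection. All the nearest genes were picked for their likeness from 14053, so the differences are a description.

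The other genes of these pathways were counted from 6 lists. Of 14 other aldehyde dehydrogenases, 11 were tested, with 5 lower and 0 higher with siTAZ #1 (9.78% and 10.8% of all genes tested) and 3 lower and 1 higher with siTAZ #2 (14.4% and 14.1%), and median log2 fold changes of -0.33 and -0.08, where those of all genes tested were 0.02 and 0.01. ALDH1L2, the mitochondrial enzyme of folate metabolism, fell with both siRNAs, from 130 and 140.7 CPM in siNTC to 50.7 and 56.5 in siTAZ #1 and 29.8 and 30.2 in siTAZ #2. Its log2 fold changes were -1.34 (SE 0.10, FDR 0.00134) and -2.17 (SE 0.11, FDR 0.000503), and both calls held in all 16 alternatives. ALDH1L2 also stood on the study's own list drawn from these libraries. ALDH9A1 fell with both siRNAs by a smaller amount, -0.35 (SE 0.08, FDR 0.0375) and -0.37 (SE 0.08, FDR 0.024), and these calls were lost in 9 and 5 of 16 alternatives, among them leaving out either siNTC library. ALDH18A1, of proline synthesis, had the highest level per kb on the list and did not pass the test (-0.15, FDR 0.191, and -0.20, FDR 0.0886).

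ALDH7A1, ALDH1B1 and ALDH3A2 differed most between the siRNAs. ALDH7A1, of lysine breakdown, stood at 23.5 and 23.1 CPM in siNTC, 6.52 and 8.01 in siTAZ #1 and 36.4 and 27.0 in siTAZ #2, with a direct log2 difference of -2.12 (SE 0.21, FDR 0.00182). The mitochondrial acetaldehyde enzyme ALDH1B1 went the other way, at 41.3 and 45.4, 34.3 and 34.6, and 11.3 and 10.8 CPM (1.64, SE 0.12, FDR 0.000993). ALDH3A2, the fatty aldehyde enzyme, stood at 18.6 and 16.9, 6.65 and 5.83, and 13.0 and 12.1 CPM, with a difference of -1.01 (SE 0.18, FDR 0.0102) that was lost without siTAZ #2 replicate 1 (FDR 0.058) or replicate 2 (0.052). The list had 4 genes lower and 2 higher in siTAZ #1 than in siTAZ #2, where 13.4% of all genes tested were lower and 15.2% higher, a background that also holds for the direct counts of the lists that follow. Leaving out a library moved its counts to 3 without either siNTC library for siTAZ #1, and to 2 without either siNTC or either siTAZ #2 library and 6 without either siTAZ #1 library for siTAZ #2.

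**Figure D4:**
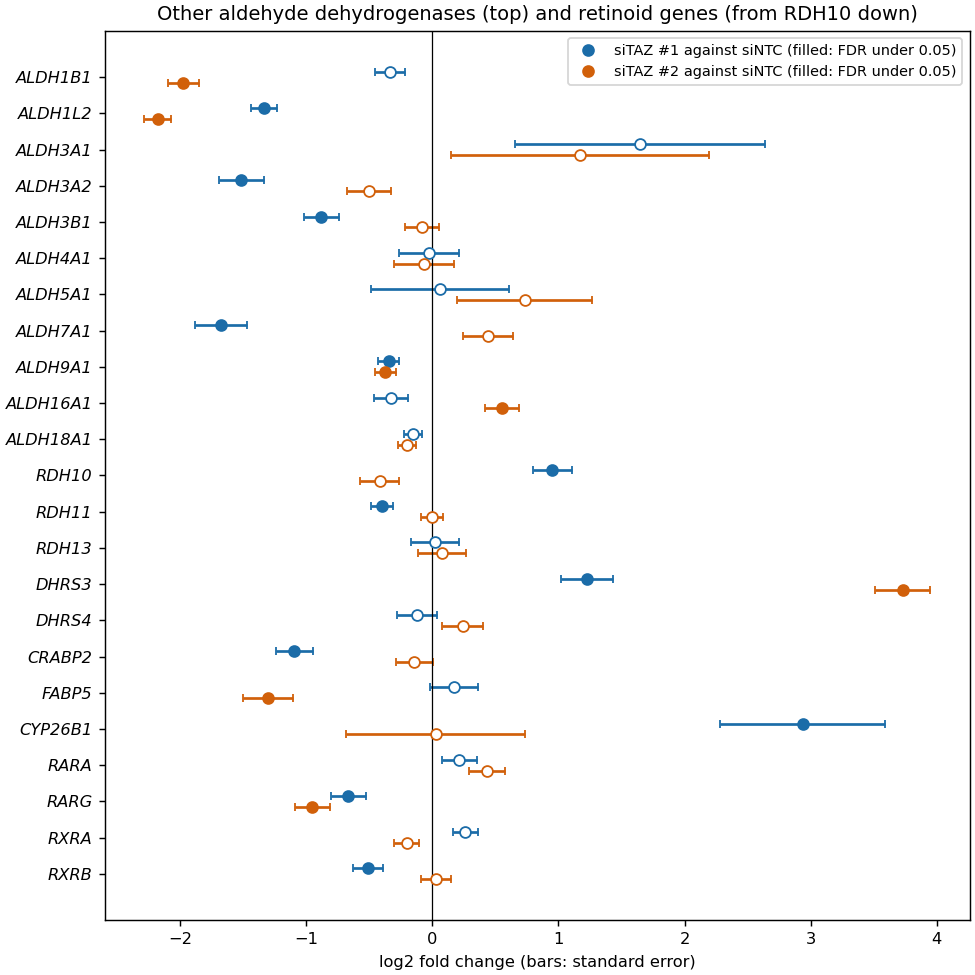
Log2 fold change of the 11 tested other aldehyde dehydrogenases and 12 tested genes of retinoid handling with siTAZ #1 and siTAZ #2 against siNTC, filled where the FDR was under 0.05. ALDH1L2 (-1.34 and -2.17) and DHRS3 (1.23 and 3.73) are called with both siRNAs, and ALDH7A1 (-1.68 and 0.45) with siTAZ #1.

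Retinoid handling and its receptors, which act on the product of the ALDH1A enzymes, had 13 of 28 genes tested, with 4 lower and 3 higher with siTAZ #1 (9.78% and 10.8% of all genes) and 2 lower and 2 higher with siTAZ #2 (14.4% and 14.1%). DHRS3, which turns retinaldehyde back into retinol, stood at 1.97 and 1.58 CPM in siNTC, 3.94 and 4.36 in siTAZ #1, and 23.2 and 23.9 in siTAZ #2. It rose by 1.23 (SE 0.21, FDR 0.0128) and 3.73 (SE 0.22, FDR 0.00063) on the log2 scale. The first call was lost without siNTC replicate 1 (FDR 0.061) or replicate 2 (0.09). The retinoic acid receptor RARG stood at 35.2 and 41.2, 23.0 and 25.1, and 19.5 and 20.1 CPM, and was lower with both siRNAs (-0.67, SE 0.14, FDR 0.0234, and -0.95, SE 0.14, FDR 0.00577). Its call with siTAZ #1 was lost when either siNTC or either siTAZ #2 library was left out (FDR 0.051 to 0.14).

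CRABP2, a carrier of retinoic acid, had the highest mean level per kb of merged exons on the retinoid list (29.0, with RDH11 at 26.9). Per kb of the longest transcript RDH11 stood higher (36.7, with CRABP2 at 30.4). CRABP2 fell with siTAZ #1 (-1.09, SE 0.15, FDR 0.00652, a call lost without either siNTC library) and not detectably with siTAZ #2 (-0.14, SE 0.15, FDR 0.514). In the direct comparison DHRS3 was lower in siTAZ #1 by -2.50 (SE 0.20, FDR 0.00114), while CYP26B1, which breaks down retinoic acid, was higher by 2.91 (SE 0.64, FDR 0.021). CYP26B1 had 3.94 and 3.90 CPM in siTAZ #1 and 0.189 to 0.824 in the other 4 libraries, and its call was lost without siTAZ #2 replicate 1 (FDR 0.078) or replicate 2 (0.12). The list had 5 genes lower and 4 higher in the direct comparison. Its 7 calls with siTAZ #1 came to 1 without siNTC replicate 1, 0 without siNTC replicate 2 and 4 without either siTAZ #2 library, its 4 with siTAZ #2 to 2 without siNTC replicate 2, and its 9 direct calls to 4 without siTAZ #2 replicate 2.

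The breakdown of branched-chain amino acids, which holds the step of ALDH6A1, had 5 of 27 genes lower and 0 higher with siTAZ #1 (9.78% and 10.8% of all genes), and 4 lower and 1 higher with siTAZ #2 (14.4% and 14.1%), with medians of -0.18 and -0.20. BCAT2, the mitochondrial transaminase of the first step, stood at 39.2 and 53.1 CPM in siNTC, 27.2 and 21.7 in siTAZ #1, and 17.6 and 18.3 in siTAZ #2 (-0.92, SE 0.20, FDR 0.0259, and -1.36, SE 0.20, FDR 0.00577). PCCB, a subunit of propionyl-CoA carboxylase, stood at 44.5 and 44.7, 19.7 and 19.5, and 34.4 and 30.5 CPM (-1.19, SE 0.12, FDR 0.00292, and -0.46, SE 0.12, FDR 0.0355). MCCC2, a subunit of the leucine pathway's carboxylase, was lower with both as well (-0.70, FDR 0.0477, and -1.15, FDR 0.00812). These 3 genes were the ones lower with both siRNAs. The call of BCAT2 with siTAZ #1, of MCCC2 with siTAZ #1 and of PCCB with siTAZ #2 was lost when either siNTC or either siTAZ #2 library was left out, and that of MCCC2 with siTAZ #2 without siNTC replicate 1 (FDR 0.065).

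ECHS1, with the highest level per kb on that list, fell with siTAZ #1 (-0.57, SE 0.09, FDR 0.00896, lost without siNTC replicate 1 at 0.082 or replicate 2 at 0.058) and stood at -0.20 (SE 0.09, FDR 0.137) with siTAZ #2. Between the siRNAs 6 genes were lower and 1 higher in siTAZ #1. The largest differences among called genes were in MMAB (-0.74, SE 0.17, FDR 0.0237), BCKDHA (-0.74, SE 0.16, FDR 0.0189) and PCCB (-0.73, SE 0.12, FDR 0.00826). The counts of the list moved with single libraries, and the share of all genes called in those fits was not computed. They came to 1 with siTAZ #1 without either siNTC library, 2 without either siTAZ #2 library, 11 without siTAZ #1 replicate 1 and 7 without replicate 2, and with siTAZ #2 they ran from 1 without siNTC replicate 1 to 14 without siTAZ #1 replicate 2. The direct count of 7 came to 2 without either siNTC library, 2 and 1 without siTAZ #2 replicates 1 and 2, and 10 without siTAZ #1 replicate 2.

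The molybdenum cofactor, which AOX1 needs, had 9 genes on its list, all tested, with 0 called with siTAZ #1 (20.6% of all genes) and 2 lower with siTAZ #2 (14.4%). With siTAZ #1 the edgeR test gave 2 genes at an unadjusted p under 0.05, and DESeq2 called 0. MOCS2, of cofactor synthesis, had the highest mean level per kb of merged exons. Per kb of the longest transcript it stood at 10.2 and SUOX at 10.3. The fold changes of MOCS2 were -0.02 (SE 0.17, FDR 0.947) and -0.27 (SE 0.17, FDR 0.291). The first of these turned to 0.015 under library totals and 0.19 without siTAZ #1 replicate 1. MOCS1, of the first step of cofactor synthesis, was higher in siTAZ #1 than in siTAZ #2 (0.85, SE 0.21, FDR 0.0292), and MARC1 (-1.89, SE 0.44, FDR 0.0246) and sulfite oxidase SUOX (-0.70, SE 0.17, FDR 0.0291) were lower. The list had 2 genes lower and 2 higher in this comparison. The 3 differences were lost without siTAZ #2 replicate 2 (FDR 0.1 to 0.13), MARC1 and SUOX also without siTAZ #2 replicate 1, SUOX and MOCS1 without either siNTC library, and MARC1 without siNTC replicate 1 or siTAZ #1 replicate 1. The list's 2 calls with siTAZ #2 came to 0 without either siNTC or either siTAZ #2 library, its 0 with siTAZ #1 to 2 without siTAZ #1 replicate 1, and its 4 direct calls to 0 without siNTC replicate 1 or siTAZ #2 replicate 2 and 1 without siNTC replicate 2 or siTAZ #2 replicate 1.

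Of 14 other enzymes of alcohol, formaldehyde and carbonyl metabolism, 13 were tested, with 4 lower and 2 higher with siTAZ #1 (9.78% and 10.8% of all genes) and 3 lower and 1 higher with siTAZ #2 (14.4% and 14.1%). Glutathione reductase GSR rose with both (0.42, SE 0.09, FDR 0.0238, and 0.37, SE 0.09, FDR 0.0292), and AKR1C1, an aldo-keto reductase, fell with both (-0.85, SE 0.14, FDR 0.0123, and -0.55, SE 0.14, FDR 0.0347). All 4 of these calls were lost without either siNTC library. AKR1C1 and AKR1C3 belong to a family of closely related copies, and how reads shared within it were counted is not known. AKR1B1, the aldose reductase with the highest level per kb, stood at 0.11 (SE 0.07, FDR 0.338) with siTAZ #1 and fell with siTAZ #2 (-0.52, SE 0.07, FDR 0.005). Between the siRNAs the largest differences among called genes were in CAT, the catalase that also oxidises ethanol (0.70, SE 0.13, FDR 0.0123), AKR1B1 (0.63, SE 0.07, FDR 0.00283) and AKR1C3 (-0.62, SE 0.17, FDR 0.0431), and 3 genes were lower and 2 higher in siTAZ #1. CAT lost its call without siTAZ #2 replicate 1 (FDR 0.075) or replicate 2 (0.06), and AKR1C3 without any library but siTAZ #1 replicate 2. The list's 6 calls with siTAZ #1 came to 0 without either siNTC library, its 4 with siTAZ #2 to 1 without either siNTC and 2 without either siTAZ #2 library, and its 5 direct calls to 2 without either siNTC library, 3 without siTAZ #1 replicate 1 and 1 without either siTAZ #2 library.

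Of the other alcohol dehydrogenases, ADH4, ADH6 and ADH7 had too few counts to be tested, and only the mitochondrial hydroxyacid-oxoacid transhydrogenase ADHFE1 was tested. It stood at 6.02 and 5.55 CPM in siNTC, 2.65 and 3.22 in siTAZ #1, and 2.90 and 1.87 in siTAZ #2. The siTAZ levels all lay under those of siNTC. The log2 fold change was -0.97 (SE 0.30, FDR 0.0746) with siTAZ #1 and -1.27 (SE 0.31, FDR 0.0299) with siTAZ #2, and the latter call was lost without siNTC replicate 1 (FDR 0.13), siNTC replicate 2 (0.11) or siTAZ #2 replicate 2 (0.11).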

How the data were processed

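Per the labels and the study's methods, the authors sequenced the libraries by the Ion Torrent method, used TMAP for alignment to hg19 and HTSeq 0.6.1 for counting per gene. The counting mode and strand setting were not given in the sources used here, so reads of overlapping or antisense genes cannot be told apart. The deposited values are raw counts per gene symbol. Of 23368 entries, 13 whose symbols had become dates (0.0458% to 0.0506% of counts) were left out. Positions on GRCh37 were found for 21477 symbols in GENCODE v44lift37, 1921 of them through an older symbol.

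The 10 genes and the lists were chosen with earlier results of these data known. Members and listed genes were read by symbol. Named genes of a list were those called with both siRNAs in 1 direction, the one with the highest level per kb, and up to 3 with the largest called difference between the siRNAs, and 1 retinoid gene that this rule would name is counted in its list but not reported here. The 3 genes nearest to a member were taken from all genes tested.

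Counts of all 6 libraries were filtered by filterByExpr, scaled by TMM and fitted in 1 model with edgeR 4.0.16 (R 4.3.3), and each comparison was a quasi-likelihood F test with Benjamini-Hochberg adjustment over 14053 genes and an FDR threshold of 0.05. The fit was also run on simulated counts with the same dispersion for every gene and library. The real replicates did not vary so evenly, so that run does not show how the fit performs on them. Fold changes are log2. With 2 libraries a group, a permutation test could not reach this threshold. Replicates differed by more than sampling noise (mean chi-square per gene 5.36 in siNTC, 83.7 in siTAZ #1 and 11.2 in siTAZ #2). The RANGAP1 to Y genes, near 0 in siTAZ #1 replicate 2 alone, were included in these means. The value of siTAZ #1 is therefore not a measure of ordinary replicate spread, and it was not computed without them. Total counts ran from 15648055 to 32078188. Alternatives were other scalings (RLE, upper quartile, library totals), other filters, DESeq2 1.42.0, edgeR's exact test and fit on 4 libraries, a replicate block, leaving out the RANGAP1 to Y genes, an FDR of 0.1, leaving out each library, and transcript length.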

Additional observations from a re-analysis of the deposited data

Results flagged for a closer look

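ADH1B differed between the siRNAs by 4.07 on the log2 scale in the direct test, from 80 and 99 counts in siTAZ #1 to 6 and 3 in siTAZ #2, and the call held in all 16 alternatives. ALDH2 differed by -0.45, with a call lost in 8 of 16 alternatives (FDR 0.00251 to 0.436). The targeted gene WWTR1 differed by -0.70, a call that edgeR's exact test of 4 libraries lost.

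Named genes of the pathway lists also differed in the direct test. ALDH7A1 (-2.12) was lower and ALDH1B1 (1.64) higher in siTAZ #1, and both calls held in every alternative. ALDH3A2 (-1.01) was lower, with a call lost in 3 of 16 alternatives. Of the retinoid genes, DHRS3 (-2.50) was lower in every alternative, and CYP26B1 (2.91) was higher, with a call lost in 2 of 15. Of the molybdenum genes, MARC1 (-1.89) and SUOX (-0.70) were lower and MOCS1 (0.85) higher. Their calls were lost in 5 of 15, 7 of 16 and 6 of 16 alternatives. Of the branched-chain amino acid genes, MMAB (-0.74), BCKDHA (-0.74) and PCCB (-0.73) were lower, with calls lost in 5, 6 and 2 of 16 alternatives. Of the carbonyl enzymes, CAT (0.70) and AKR1B1 (0.63) were higher and AKR1C3 (-0.62) lower, with calls lost in 3, 1 and 9 of 16 alternatives.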

How the results depend on the processing

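Of the log2 fold changes of the 10 genes, WWTR1 and the named genes under the alternatives, 921 kept their direction and side of the threshold, 149 lost and 8 gained a call, and 4 turned sign. The 4 were ADH5 without siTAZ #1 replicate 2 (-0.13 with siTAZ #1, within -0.13 to 0.27 over the left-out libraries, and -0.057 between the siRNAs, within -0.057 to 0.34) and MOCS2 with siTAZ #1 under library totals (0.015) and without siTAZ #1 replicate 1 (0.19, within -0.27 to 0.19). The causes of changed calls were not tested, apart from fewer libraries or genes. Of the counts of called genes, 265 stayed within 1.5 times and 92 did not. The share of all genes called under each alternative was not computed. A moved count is therefore not read as a trait of its list, here or in the paragraphs that follow. All tests rest on 2 libraries a group, and low counts limit ADH1A, ADH1C, ALDH1A1 and ALDH1A2.

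Leaving out each library moved the calls among the 10 genes to between 1 and 4 with siTAZ #1, 3 and 6 with siTAZ #2 and 1 and 3 between the siRNAs. In that order, other alcohol dehydrogenases had 0, 0 to 1 and 0 calls, other aldehyde dehydrogenases 3 to 5, 2 to 6 and 4 to 6, retinoid genes 0 to 7, 2 to 5 and 4 to 9, molybdenum genes 0 to 2, 0 to 3 and 0 to 5, branched-chain amino acid genes 1 to 11, 1 to 14 and 1 to 10, and carbonyl enzymes 0 to 7, 1 to 5 and 1 to 5.

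Between the siRNAs the 10 genes had 1 call in the exact test and in the fit of 4 libraries, and 4 at FDR 0.1. The exact test on 4 libraries gave 3 other aldehyde dehydrogenases with siTAZ #1 and 2 between the siRNAs, 2 and 5 retinoid genes, 1 molybdenum gene between the siRNAs, 1, 14 and 0 branched-chain genes in the 3 comparisons, and 0 and 0 carbonyl enzymes with siTAZ #1 and between the siRNAs. The edgeR fit of 4 libraries gave 4 retinoid genes with siTAZ #1, 1 molybdenum gene between the siRNAs, 2, 14 and 2 branched-chain genes, and 2 carbonyl enzymes between the siRNAs. Without the RANGAP1 to Y genes, siTAZ #1 had 1 other alcohol dehydrogenase, 1 molybdenum gene and 8 branched-chain genes, and siTAZ #2 had 9 branched-chain genes. At FDR 0.1, siTAZ #1 had 1 other alcohol dehydrogenase and 1 molybdenum gene, and siTAZ #2 had 11 branched-chain genes. DESeq2 gave 8 branched-chain genes with siTAZ #2, and the fit without a filter 3 carbonyl enzymes between the siRNAs. None of these counts has the share of all genes called in its setting beside it.

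The deviations of replicate 1 had correlations of -0.0007, 0.0109 and -0.0769 between the groups, so no broad shift shared by replicate number was seen. These correlations, which included the RANGAP1 to Y genes, cannot show whether the libraries were prepared in pairs. With the replicate block, siTAZ #2 had 0 other alcohol dehydrogenases, 2 other aldehyde dehydrogenases, 1 molybdenum gene, 3 branched-chain genes and 2 carbonyl enzymes, siTAZ #1 had 3 branched-chain genes, and 0 molybdenum genes and 2 carbonyl enzymes were called between the siRNAs.

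Per kb of the longest transcript, levels in siNTC were 58.4 for ADH5, 7.58 for ALDH2, 6.17 for AOX1, 3.4 for ALDH6A1, 3.19 for ALDH1A3, 1.83 for ADH1B and 1.41 for ADH1C.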
